A study of Solanum lycopersicum with 3 samples.

Results

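The miRNAs described here are the predicted miRNAs of unpollinated tomato ovaries that were read most often. They were chosen by their read counts alone: a predicted miRNA was included when its raw counts in the 3 libraries summed to 500 or more. This held for 48 of the 509 predicted miRNAs and of the 634 miRNAs counted in all. The small RNA libraries came from ovaries of Solanum lycopersicum cv UC82 whose flower pedicels were injected with double-stranded RNA (dsRNA) against AGL6 (AGL6sil), with dsRNA against IAA9 (IAA9sil), or with the carrier alone (ctrl, mock-treated, although its title reads WT). AGL6 is a MADS-box transcription factor and IAA9 an Aux/IAA protein, and both hold back ovary growth before fertilization. The dsRNA was bound to layered double hydroxides (LDHs), mineral particles that carry it into the tissue, at 5 µg per ovary. All flower buds, those of ctrl included, were emasculated after 6 h and bagged, and the ovaries were collected after 5 days. The treatment labels of all 3 samples call the ovaries detached, whereas the protocol leaves the buds on the plants, and the labels do not settle which holds. The silencing is transient and partial, and each library is 1 pool of ovaries, so there is 1 library per condition and no replicate check. Every ratio given here therefore compares these libraries and not the conditions. The counts are of small RNAs, so neither the AGL6 and IAA9 transcripts nor markers of the ovary could be checked in them.

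Plant miRNAs are cut from hairpin transcripts by DCL1 and guide AGO1 to complementary mRNAs, which are cleaved or kept from translation. Longer small RNAs that begin with A are, in Arabidopsis, typically products of DCL3 that guide chromatin silencing through AGO4. A predicted miRNA is a small RNA whose genomic surroundings can fold into a hairpin and that has no entry among the known miRNAs, so that its name, such as novel_351, is only a number and carries no known target or function.

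Mature sequences were taken from the study's supplementary lists, which hold 47 predicted and 46 known miRNAs and include 4 of the 48 members. These lists are of miRNAs that differed between the libraries, so the 4 are not a random draw of the members. They are shown because each is called in at least 1 comparison below, and 3 other listed sequences stand beside them for comparison. Capitals mark the seed, bases 2 to 8.
novel_351: uGAAGGUCcgagguugagguu
novel_4: uUGAAGUGuuugagggaacuc
sly-miR395a: cUGAAGUGuuugggggaacucc
novel_81: gCUGAAGUguuuaggggaacu
novel_25: aACGAUCUucgacuagcaaaagac
sly-miR9475-5p: aACGAUCUcuacauuguaggc
novel_36: aGACUGUGacuuauuugaaaagac

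The 4 members fall into 2 kinds by length and first base. novel_351 and novel_4 are 21 nt long and begin with U, the usual form of a plant miRNA. novel_25 and novel_36 are 24 nt long and begin with A, which was also the form of 26 of the 47 listed predicted sequences. novel_25 and novel_36 end in the same 7 bases, an ending found in no other listed predicted sequence, and their other bases differ widely, with 10 edits between them. novel_4 has the seed of sly-miR395a, and over its 21 bases it differs from that known miRNA by 2 substitutions, U1C and A13G (the base of novel_4 first, positions counted from its 5′ end). miR395 targets sulfate transporter and ATP sulfurylase mRNAs in Arabidopsis. novel_25 has the seed of sly-miR9475-5p and of novel_343 but is 9 edits away from the first and 10 from the second, and novel_351 and novel_36 shared a seed with none of the listed sequences.

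Reads were concentrated on a few members. The 48 were chosen by these same counts, so their large share of predicted reads follows largely from the choice. Of all reads on predicted miRNAs, the 48 held 66.2% in AGL6sil (95% interval 65.8 to 66.6) and 66.8% in IAA9sil (66.3 to 67.3), against 68.7% in ctrl (68.2 to 69.3). Intervals here and below are Clopper-Pearson intervals and cover counting error only, since without molecular identifiers copies of a molecule made by PCR are counted more than once. Known miRNAs took most reads in each library, so that the members made up 2.95% of all counted reads in AGL6sil and 2.12% in IAA9sil, against 2.04% in ctrl. The median member had 457 reads in AGL6sil and 233.5 in IAA9sil, against 237 in ctrl, and no member was at 0 in any library. The 3 members with the most reads in the 3 libraries together, novel_1, novel_217 and novel_351, held 38.5% of the members' reads in AGL6sil and 41.5% in IAA9sil, against 35.1% in ctrl.

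The total of a member ranged from 511 to 15743 reads, with a median of 950. Just inside the limit lay novel_35 with 528 reads, novel_44 with 515 and novel_40 with 511, and just outside it novel_41 with 493, novel_289 with 486, and novel_45 and novel_493 with 485 each. The members are not a separate class by depth, since totals run on across the limit. Ranked among predicted miRNAs within a library, 44 of the 48 were among the first 48 in AGL6sil and 43 in IAA9sil, against 42 in ctrl. The lowest place was that of novel_42, ranked 122 in IAA9sil. The members were chosen on the sum of these counts, so high places within each library follow largely from the choice.

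Unscaled, the members' reads summed to 43037 in AGL6sil and 22331 in IAA9sil, against 21168 in ctrl. All counted miRNA reads summed to 1460919, 1053000 and 1038064 in the same libraries. AGL6sil thus had the most counted miRNA reads but the fewest clean reads, 0.857 times those of ctrl, where IAA9sil had 0.916 times. Members accounted for 63.9% of the 34206 reads by which predicted miRNAs in AGL6sil exceeded those in ctrl. A single member, novel_351, gave 5548 of these reads, or 16.2%. Without it the members' reads were 1.80 times those of ctrl, against 2.03 times with it, and those of the other predicted miRNAs were 2.28 times. The extra reads in AGL6sil were thus spread over the predicted miRNAs as a class, and novel_351 took an uneven part.

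To compare single members, counts were divided by the median count of all 634 miRNAs in their library, the scale used in the study. This divides AGL6sil by 2.13 and IAA9sil by 1.16 relative to ctrl. A call required a log2 ratio of 1.5 or more in either direction (2.83-fold) and a raw total of at least 50 reads, a limit that all members pass. On this scale, 15 members were highest in AGL6sil and 15 in IAA9sil, against 18 in ctrl. Scaled by the clean reads of each library instead, these numbers were 43, 3 and 2, so the library in which a member is highest depends on the scale for most of them. Values over 7 scalings, this one and 6 others, are given below for members whose calls are described.

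**Figure D1:**
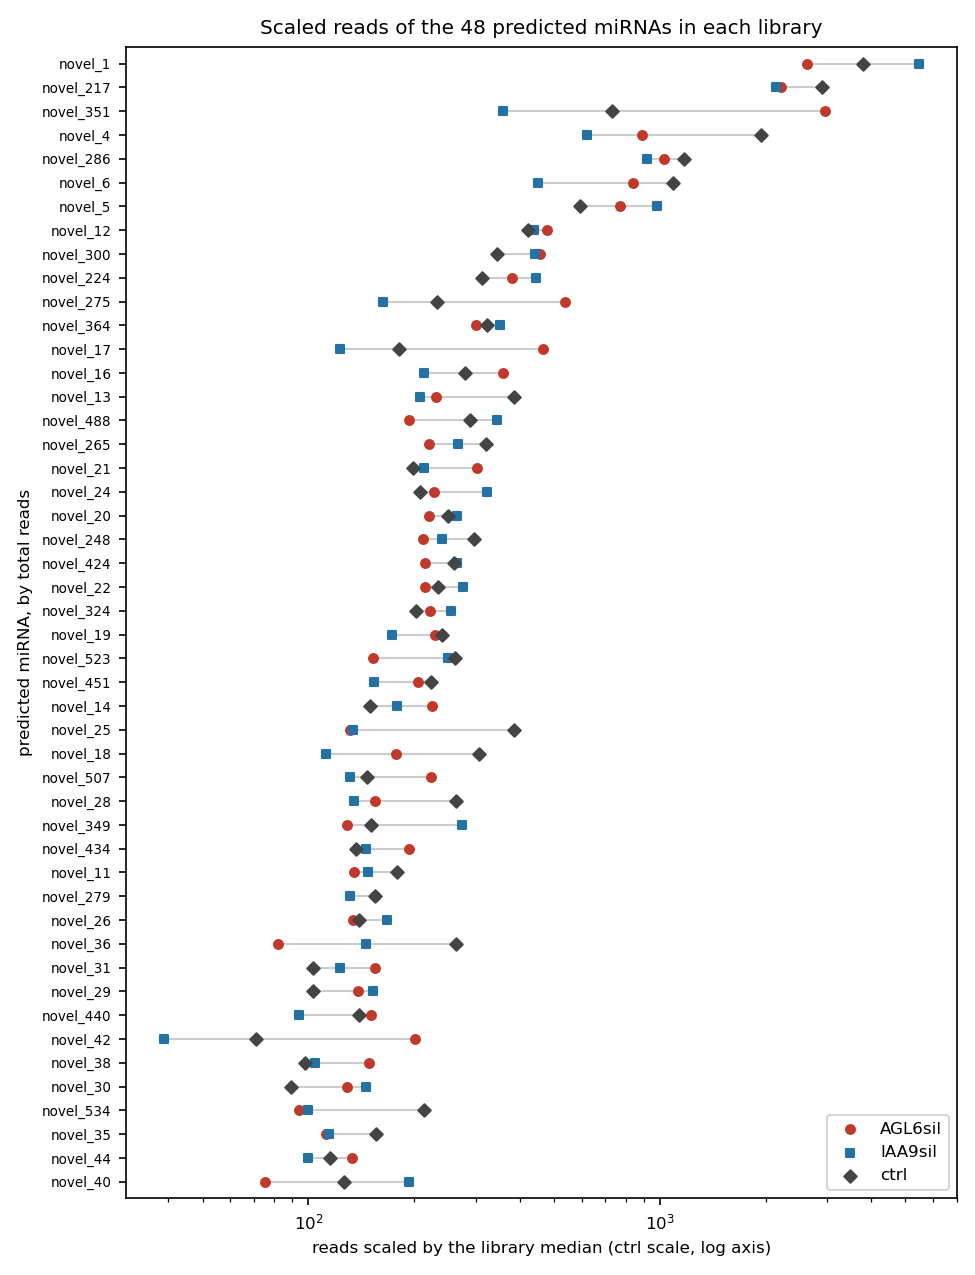
Reads of each of the 48 members scaled by the library median (log axis), with AGL6sil as circles, IAA9sil as squares and ctrl as diamonds; grey lines join the lowest and highest library. Most members lie close together in the 3 libraries, while novel_351 sits at 2950 in AGL6sil against 358 in IAA9sil and 732 in ctrl.

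In AGL6sil against ctrl, most members were within 1.5-fold of ctrl on the library-median scale, and 17 of the 48 were past it. The counting interval lay above 0 for 17 members, lay below 0 for 19 and included 0 for 12. Over the 374 miRNAs with 50 reads or more these numbers were 89, 134 and 151. Narrower intervals include 0 less often, and the median width was 0.47 for members against 1.14 for the 374. The log2 ratios of the 48 had a median of −0.09, with the middle 50% between −0.50 and 0.41. Over all 374 miRNAs with 50 reads or more the median was −0.12. Of the members, 2 were called higher and 2 lower, which is 4.17% each way, where the background over the 374 miRNAs is 7.75% called higher and 13.6% called lower. Each count of members lies below its background. On other scales the split of members was 4 higher and 0 lower (total count), 12 and 0 (no scaling) and 17 and 0 (clean reads). The median of the 374 moved with it, to 0.48, 0.97 and 1.19. The shares of the 374 called on these scales were not computed, so these counts have no background beside them.

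novel_351 stood apart from the other members. It had 6280 reads in AGL6sil and 416 in IAA9sil, against 732 in ctrl, and was the most-read predicted miRNA in AGL6sil, while it ranked 10 in IAA9sil and 6 in ctrl. It made up 9.66% of predicted reads in AGL6sil (interval 9.44 to 9.89) and 1.24% in IAA9sil (1.13 to 1.37), against 2.38% in ctrl (2.21 to 2.55). Its log2 ratio was 2.01 in AGL6sil against ctrl (interval 1.90 to 2.12), or 4.03-fold, and −1.03 in IAA9sil against ctrl (−1.21 to −0.86). It was the only member whose interval lay wholly past the threshold in AGL6sil, 1 of 48 against a background of 12.3%, and it was called there under each of the 7 scalings, with values between 1.89 and 3.32. A comparison within each library needs no scale: for each 100 reads of novel_217, the second most-read member, there were 133 reads of novel_351 in AGL6sil and 16.7 in IAA9sil, against 25.3 in ctrl.

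novel_42 was the other member called higher in AGL6sil, and it had few reads in the other libraries. Its counts were 428 in AGL6sil and 45 in IAA9sil, against 71 in ctrl, with a log2 ratio of 1.5 (interval 1.14 to 1.88) that only just reached the threshold. novel_17, with 989, 143 and 181 reads, followed at 1.36 (1.13 to 1.60), and novel_275, with 1143, 190 and 233 reads, at 1.20 (1.00 to 1.41). Their calls turned on the scale: novel_42 ranged from 1.39 to 2.81 and was called in 6 of the 7 scalings, novel_17 from 1.24 to 2.67 and in 4, and novel_275 from 1.09 to 2.52 and in 3. The call of novel_42 was lost with the median of predicted miRNAs as the scale, and also with a pseudocount of 1, which gave 1.49. novel_42 reached the limit of 500 reads through AGL6sil, the library where it is high. After scaling its total was 311 reads, under the limit, so it is a member only through its reads in that library. The mature sequences of these 3 members are not printed here.

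The lowest ratios in AGL6sil were those of novel_36 and novel_25, the pair that begin with A. First bases were available for only 4 of the 48 members, so whether others also begin with A is unknown here. novel_36 had 174 reads in AGL6sil and 170 in IAA9sil, against 264 in ctrl, and its log2 ratio in AGL6sil was −1.69 (interval −1.98 to −1.41). novel_25 had 280, 156 and 386 reads and a ratio of −1.55 (−1.78 to −1.33). novel_534 came next, with 200, 116 and 214 reads and a ratio of −1.19 (−1.47 to −0.90), short of the threshold. Both called members were lower than ctrl under each of the 7 scalings, but novel_36 was past the threshold in 4 of them and novel_25 in 2. Scaled by the clean reads they stood at −0.38 and −0.24.

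In IAA9sil against ctrl, 2 members were called lower and 0 higher, against a background of 4.55% lower and 2.41% higher. The 2 called members are 4.17% of the 48, close to that background. The median over the members was −0.18, with the middle 50% between −0.54 and 0.25, and over all 374 miRNAs it was −0.05. The scale moved IAA9sil less than AGL6sil. Scaled by the clean reads, the 374 had a median of 0.29 and no member was called.

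The 2 called members were novel_4 and novel_25. novel_4, the relative of sly-miR395a, had 720 reads in IAA9sil and 1938 in ctrl, with a log2 ratio of −1.64 (interval −1.77 to −1.52) that lay wholly past the threshold, in 1 of 48 members against a background of 1.87%. novel_25, with 156 reads against 386, was at −1.52 (−1.80 to −1.25). novel_18, with 378 reads in AGL6sil and 130 in IAA9sil, against 305 in ctrl, was at −1.45 in IAA9sil (−1.75 to −1.15), and novel_6, with 1790 and 523 against 1092, at −1.28 (−1.43 to −1.13). All 4 were lower in IAA9sil than in ctrl under each of the 7 scalings run for them, with novel_4 between −1.64 and −1.30 and novel_25 between −1.52 and −1.18. novel_25 is past the threshold in both silenced libraries, and since both are set against the same ctrl library, its 386 reads there enter both ratios.

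No member was called higher in IAA9sil than in ctrl, and 5 of the 48 were higher by 1.5-fold or more. At the same limit, 64 of the 374 miRNAs with 50 reads or more were higher. novel_349 was highest at 0.86 (interval 0.57 to 1.15; 0.86 to 1.20 over the 7 scalings), with 318 reads in IAA9sil, 275 in AGL6sil and 151 in ctrl. novel_5 followed at 0.73 (0.58 to 0.87), with 1137 reads in IAA9sil against 592 in ctrl, and novel_30 at 0.71 (0.33 to 1.10), with 169 against 89. novel_1, the member with the most reads, had 5587 reads in AGL6sil and 6358 in IAA9sil, against 3798 in ctrl. It took 8.60% of all predicted reads in AGL6sil and 19.0% in IAA9sil, against 12.3% in ctrl. Its log2 ratio to ctrl was −0.53 in AGL6sil (−0.59 to −0.47) and 0.53 in IAA9sil (0.47 to 0.59), and the value in AGL6sil changed sign with the scale, up to 0.78.

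**Figure D2:**
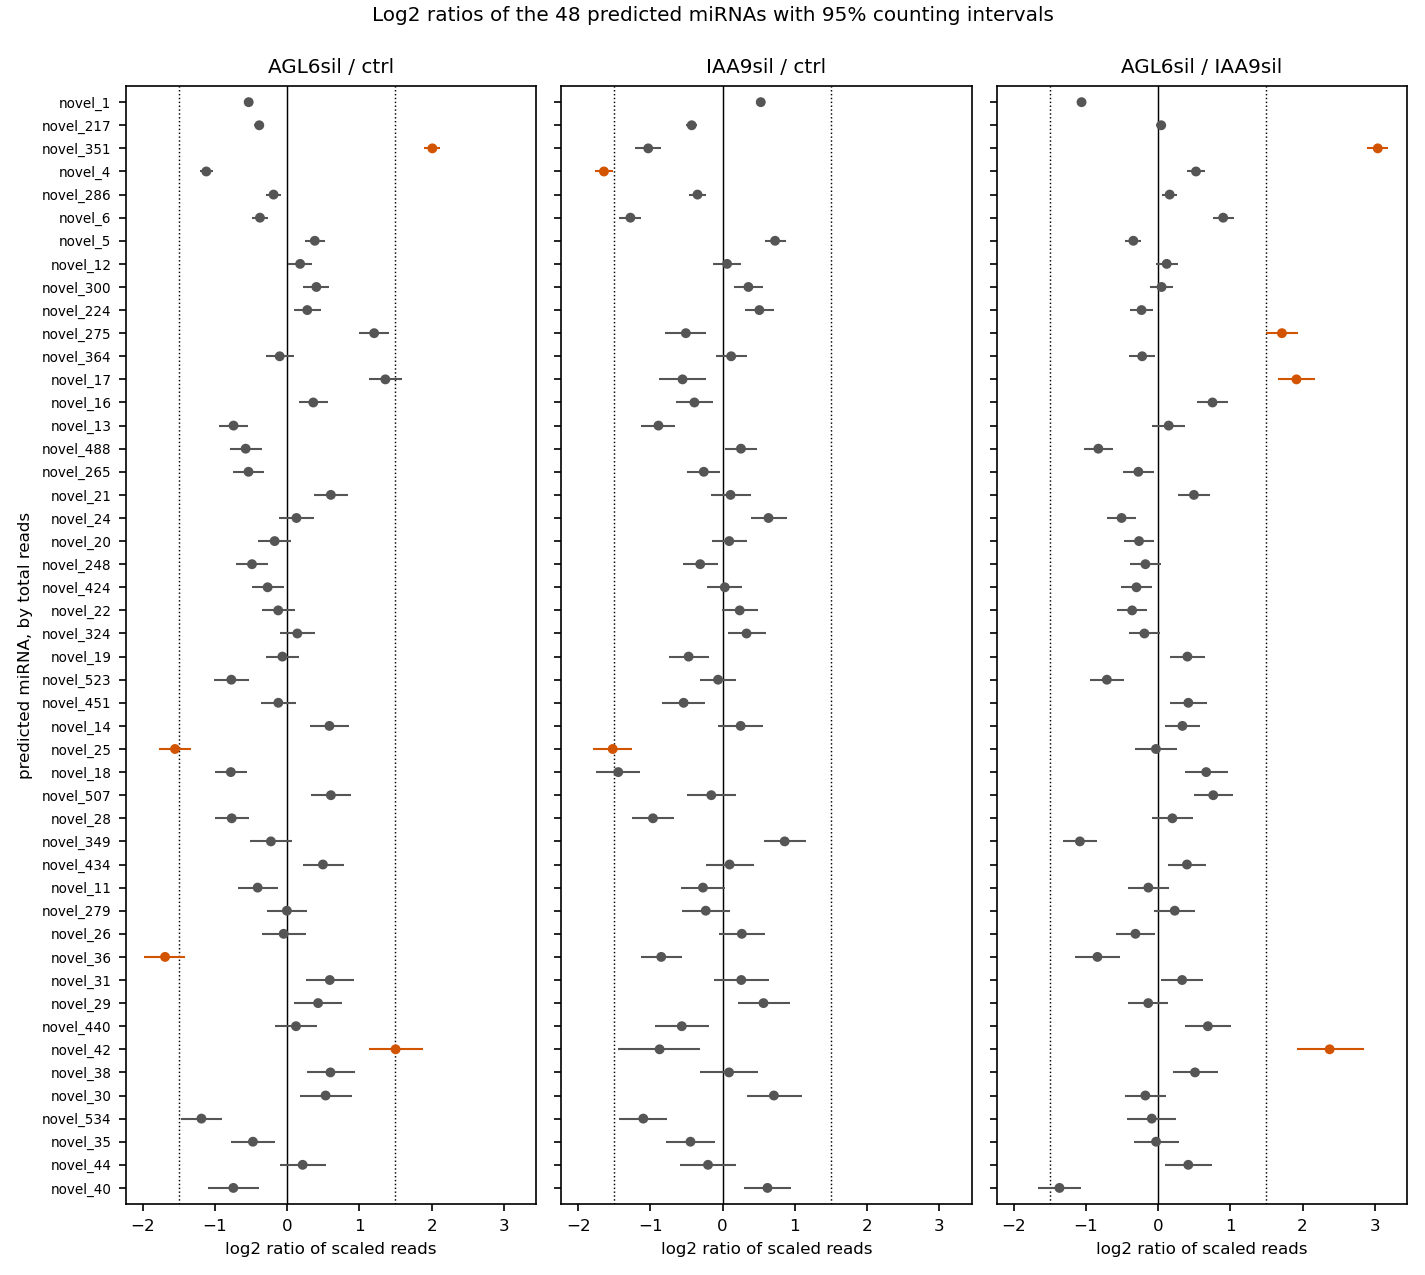
Log2 ratio of scaled reads for each of the 48 members, ordered by total reads, in AGL6sil against ctrl, IAA9sil against ctrl and AGL6sil against IAA9sil; horizontal lines are 95% counting intervals, dotted lines mark 1.5 and −1.5, and orange marks members past them. novel_351 reaches 2.01 in the first panel and 3.04 in the third, where novel_42, novel_17 and novel_275 also lie beyond 1.5.

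The silenced libraries were also compared with each other, which leaves ctrl out. In AGL6sil against IAA9sil, 4 members were called higher and 0 lower, against a background of 8.56% higher and 12.8% lower. The 4 were novel_351 at 3.04 (interval 2.90 to 3.19), novel_42 at 2.38 (1.93 to 2.85), novel_17 at 1.92 (1.66 to 2.18) and novel_275 at 1.71 (1.49 to 1.94). These are the members that stood highest in AGL6sil against ctrl, and both comparisons use the same AGL6sil library. The members were chosen on raw sums, to which AGL6sil gave the most reads. With the limit of 500 taken after scaling, 33 members were left and 3 were called, without novel_42. Each of the 4 was called under all 7 scalings, and the interval lay wholly past the threshold for 3 of them, 6.25% of the 48 against a background of 12.0%. The median of the members was 0.04, beside −0.04 over the 374 miRNAs.

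At the other end, novel_40 had 160 reads in AGL6sil and 225 in IAA9sil, with 126 in ctrl, and a log2 ratio of −1.37 (interval −1.67 to −1.07) between the silenced libraries. novel_349 stood at −1.08 (−1.32 to −0.85) and novel_1 at −1.06 (−1.11 to −1.01). None of the 3 reached the threshold. With a threshold of 1.5-fold in place of 2.83-fold, 17 members were past it in AGL6sil against ctrl, 15 in IAA9sil against ctrl and 15 in AGL6sil against IAA9sil, where the backgrounds are 52.4%, 37.2% and 57.0%. These counts are 35.4%, 31.2% and 31.2% of the 48, below the background in each comparison and nearest to it in IAA9sil against ctrl. The background includes 235 predicted miRNAs with fewer reads than the members, whose ratios counting error spreads more. The members and the background are not matched in depth, and the difference was not tested.

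novel_4 and its known relative differed from each other in AGL6sil. sly-miR395a had 7258 reads in AGL6sil and 904 in IAA9sil, against 2628 in ctrl, where novel_4 had 1898, 720 and 1938. In IAA9sil both were lower than ctrl, with log2 ratios of −1.76 (interval −1.87 to −1.65) for sly-miR395a and −1.64 for novel_4. Sequences were listed only for miRNAs that differed between the libraries, and both of these pass the threshold against ctrl in IAA9sil alone. Their likeness in IAA9sil therefore follows largely from the lists. In AGL6sil against ctrl, sly-miR395a was at 0.38 (0.31 to 0.44) and novel_4 at −1.12 (−1.21 to −1.03), a value that ran from −1.24 to 0.19 over the 7 scalings and so changed sign. For each 100 reads of sly-miR395a there were 26.2 reads of novel_4 in AGL6sil (24.8 to 27.5) and 79.6 in IAA9sil (72.1 to 87.9), against 73.7 in ctrl (69.5 to 78.2), a relation that no scaling of the libraries can change. The interval in AGL6sil does not overlap those of the other libraries, and the other 2 overlap each other. novel_81, which is not a member with its 64, 5 and 24 reads, differs from sly-miR395a over 20 shared bases by 1 substitution, A13G (the base of novel_81 first, positions counted from its 5′ end). Per 100 reads of sly-miR395a it had 0.882 reads in AGL6sil (0.678 to 1.13) and 0.553 in IAA9sil (0.179 to 1.30), against 0.913 in ctrl (0.584 to 1.36), intervals that all overlap. How reads that match more than 1 of these near-identical sequences were assigned is not given in the sources used here, so the split between them is uncertain.

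**Figure D3:**
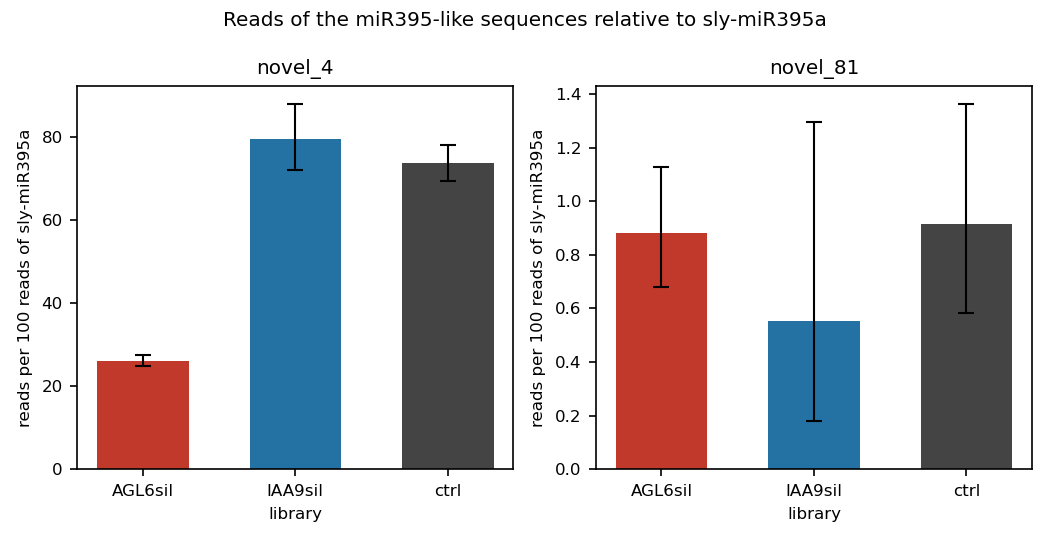
Reads of novel_4 (left) and of novel_81 (right) for each 100 reads of sly-miR395a in AGL6sil, IAA9sil and ctrl; bars start at 0 and error bars are 95% counting intervals. The bar of novel_4 is at 26.2 in AGL6sil, against 79.6 in IAA9sil and 73.7 in ctrl, while the bars of novel_81 have overlapping intervals.

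Of the 3 listed sequences that share the seed of novel_25, itself included, novel_25 and sly-miR9475-5p had fewer scaled reads in AGL6sil than in ctrl. novel_343 had more. All 3 come from lists of miRNAs that differed between the libraries, so ratios past the threshold follow largely from the lists. novel_25 and sly-miR9475-5p are 9 edits apart, past the limit of 4 used for relatives. sly-miR9475-5p had 8728 reads in AGL6sil and 10381 in IAA9sil, against 12230 in ctrl, and a log2 ratio of −1.58 in AGL6sil, beside −1.55 for novel_25. In IAA9sil they parted, with −0.45 for sly-miR9475-5p and −1.52 for novel_25. The third sequence with this seed, novel_343, went the other way, with 46 reads in AGL6sil and 19 in IAA9sil, against 7 in ctrl, and log2 ratios of 1.63 (interval 0.47 to 3.02) and 1.22 (−0.09 to 2.72), the second with an interval that includes 0.

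On the library-median scale, the other members with many reads were close to ctrl. novel_217 had 4710 reads in AGL6sil and 2495 in IAA9sil, against 2892 in ctrl, and its log2 ratios to ctrl were −0.39 and −0.43. novel_286 had 2189, 1069 and 1172 reads, with ratios of −0.19 and −0.35. novel_12 had 1015, 510 and 421 reads, and its ratio in IAA9sil, 0.06, had an interval that included 0 (−0.13 to 0.25). novel_300, with 972, 513 and 345 reads, and novel_224, with 808, 517 and 313, lay between 0.28 and 0.51 in both silenced libraries. These 5 were all within 1.5-fold of ctrl on this scale. So were the 3 members nearest the read limit in AGL6sil, apart from novel_40 at −0.75, with novel_35 at −0.47 (239 reads against 156) and novel_44 at 0.21 (284 against 115). Scaled by the clean reads, the first 5 had ratios in AGL6sil of 0.93 for novel_217, 1.12 for novel_286, 1.49 for novel_12, 1.72 for novel_300 and 1.59 for novel_224. The 26 members not described singly had totals of 535 to 1370 reads. Their log2 ratios ran from −0.77 to 0.60 in AGL6sil against ctrl, from −0.97 to 0.63 in IAA9sil against ctrl and from −0.83 to 0.76 in AGL6sil against IAA9sil.

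The members spread less in AGL6sil than either the shallower predicted miRNAs or the known miRNAs with 500 reads or more. These classes are not matched in depth, as the widths of their counting intervals below show. In AGL6sil against ctrl the middle 50% of the members spanned 0.91 log2 units, against 1.19 for the 235 predicted miRNAs with 50 or more but fewer than 500 reads and 1.65 for the 56 known miRNAs with 500 reads or more. Lower depth widens such a span: the median counting interval was 0.47 wide for members, 1.51 for the shallower predicted miRNAs and 0.17 for the known ones. The median of the known miRNAs was −1.12 in AGL6sil against ctrl, and 21 of 56 were called lower, where 2 of 48 members were. Over all 374 miRNAs with 50 reads or more, 13.6% were called lower. These values hold on the library-median scale, and a change of scale shifts every class alike. Scaled by the clean reads, the members had a median of 1.23, with 0 called lower. The ratios of the known miRNAs rise by the same amount on that scale, so fewer of them can be called lower. Their calls on that scale were not counted. In IAA9sil against ctrl the spans were 0.80, 0.81 and 0.85. With 1 library per condition none of these differences between classes was tested.

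**Figure D4:**
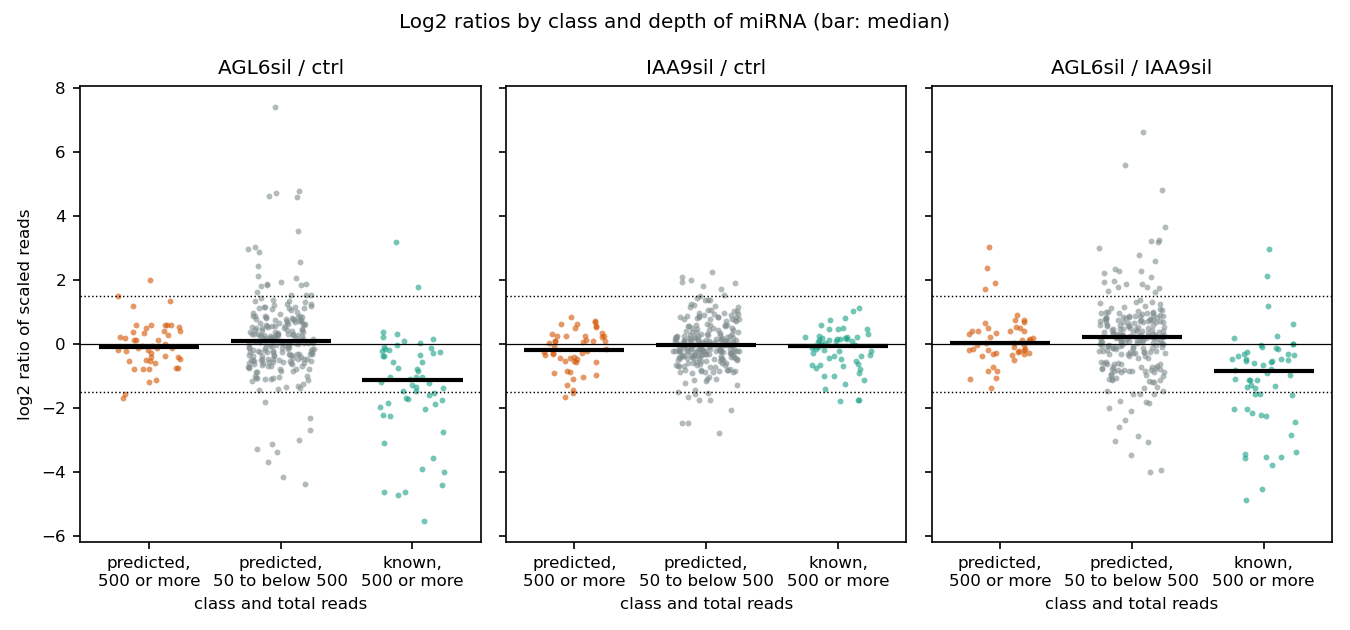
Log2 ratio of scaled reads of each miRNA (points, spread sideways at random) for the 48 members, the 235 predicted miRNAs with 50 or more but fewer than 500 reads and the 56 known miRNAs with 500 reads or more, in the 3 comparisons; bars are medians and dotted lines mark 1.5 and −1.5. In AGL6sil against ctrl the bar of the members is at −0.09 and that of the known miRNAs at −1.12, while in IAA9sil against ctrl all 3 bars are near 0.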

How the data were processed

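Small RNA of 3 libraries was analysed, 1 each of AGL6sil, IAA9sil and ctrl. The deposited values are raw read counts per mature miRNA. The authors cleaned the reads, used Bowtie to place them on a tomato genome, took known miRNAs from miRBase and predicted the others from hairpin structure (miREvo, mirdeep2), and counted reads with custom scripts, without normalization. The genome build and tool versions are not given in the sources used here.

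Counts were divided by the library median over all 634 miRNAs, as in the study, and log2 ratios were taken without a pseudocount. For a ratio, a count of 0 was replaced by 3 reads. No member had a 0, but the values over other miRNAs can include such replaced counts. No p-value was computed, because 1 library per condition has no residual degrees of freedom. The alternatives were 6 other scalings (the median of predicted miRNAs, the median of ratios of DESeq2 1.42.0, TMM of edgeR 4.0.16 with R 4.3.3, the total count, the clean reads and no scaling), a pseudocount of 1, other read limits, a 1.5-fold threshold, the 95% interval past the threshold, and rows with the same 3 counts taken once. The calculation of ratios was run on simulated counts with counting error only, a known scale and changes larger than the threshold. It therefore tests neither the choice of scale nor the variation between pools.

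The text names the 10 members with the most reads, those called or with a listed sequence, the 3 highest and 3 lowest ratios per comparison, and the 3 at each side of the read limit (4 outside, because of a tie). Relatives were sought among the listed sequences at 4 edits or fewer, which held for 1 pair, novel_4 and sly-miR395a. The sequences sly-miR9475-5p, novel_343 and novel_81 and the denominator novel_217 were chosen after their values were seen. The members and lists were chosen with earlier results of these data known. Precursor positions were not analysed here. Python 3.11.15, numpy 2.4.6, scipy 1.17.1, pandas 2.3.3 and matplotlib 3.10.9 were used.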

Additional observations from a re-analysis of the deposited data

How the results depend on the processing

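The calls depended on the scale and on the limits. In AGL6sil against ctrl, the 4 called members became 17 with the clean reads, 12 without scaling and 17 with a 1.5-fold threshold, and 1 with the counting interval past the threshold, 1 among members of 1000 reads or more, and 2 where the total of 500 was taken after scaling. In IAA9sil against ctrl, 2 became 1 with the median of ratios or TMM, 0 with the total count, the clean reads or no scaling, 1 for members of 1000 reads or more, 1 by the counting interval and 15 at 1.5-fold. In AGL6sil against IAA9sil, 4 became 9 with the clean reads or no scaling and 15 at 1.5-fold. Shares called over all miRNAs were not computed for the other scales, so the counts on those scales have no background beside them. The median of the members moved from −0.09 to 0.51 (total count), 1.23 (clean reads) and 1.01 (no scaling) in AGL6sil against ctrl, to 0.16 (clean reads) in IAA9sil against ctrl, and to 0.45, 1.02 and 0.92 with the same 3 scales in AGL6sil against IAA9sil. A change of scale shifts all ratios of a comparison by 1 amount, so the distance of the members' median from that of all miRNAs, 0.03, −0.13 and 0.09 in the 3 comparisons, stayed as it was. With members of 1000 reads or more, 23 were left, and they held 53.5% of predicted reads in AGL6sil and 53.9% in IAA9sil, against 54.4% in ctrl. In AGL6sil against ctrl, 3 members in place of 4 were called with the median of predicted miRNAs, the median of ratios or the pseudocount. No member changed sign, under any of the scalings or with the pseudocount, in a comparison in which it was called on the library-median scale; in others some did, such as novel_4 in AGL6sil against ctrl (up to 0.19) and novel_36 in AGL6sil against IAA9sil (up to 0.13). No member had the same 3 counts as another row. No paired analysis was possible because each condition has 1 library, and none could be left out. How much pools of ovaries vary is unknown here.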

Other observations

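The members were unevenly spread over the numbers in the names. Of the 32 predicted miRNAs numbered 1 to 44, 28 are members, and their median total was 782 reads. None of the 166 numbered 45 to 216 is a member, and 20 of the 311 numbered 217 to 557 are, among them novel_217, novel_351, novel_286 and novel_275. The median totals of these 2 blocks were 69 and 48 reads. The limits of the blocks were set at the widest gap between members' numbers, so the middle block holds no member by construction. These numbers were looked at after the values were seen, and how the names were given is not stated in the sources used here.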
